A study of Mus musculus with 4 samples.

Results

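The 9 genes described here are Wfs1, Pantr1, Fibcd1 and Crym, read as the CA1 group, and Hs3st4, Chgb, Stmn2, Sh3gl2 and Ccnd2, read as the CA3 group. They were chosen because earlier results on these sections set them apart between hippocampal layers, and they are 9 of the 32285 genes in the feature list. Their levels in CA1, CA3 and the dentate gyrus (DG) are therefore given as a description with no test, as are all comparisons between regions. All 9 were detected in each of the 4 sections, with 343 UMIs in all for Fibcd1, the sparsest, and 13737 for Stmn2, the most abundant. A UMI (unique molecular identifier) stands for 1 captured mRNA molecule.

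Spatial transcriptomics (10x Visium) was performed on 1 coronal section of dorsal hippocampus from each of 4 male ArcCreERT2::eYFPflx mice on a C57BL/6 background, 3 to 4 months old. The 2 trained mice had learned to stay out of a shock zone on a turning arena (active place avoidance), whereas the 2 untrained mice went through the same sessions with the shock off. All 4 mice carried the inducible Cre under the Arc promoter and the floxed eYFP reporter, and all were given 4-hydroxytamoxifen under brief isoflurane anesthesia before the memory test, with tissue taken 3 days after that test. The cells that the reporter marks were not separated here. Each section holds a wide part of the hemisphere, so that cortex, striatum, thalamus, habenula and hypothalamus could be measured beside the hippocampus that the labels name. Since a Visium spot covers several cells, fewer cells of a type and less RNA per cell cannot be told apart.

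The hippocampus passes information from the granule cells of the DG to the pyramidal neurons of CA3 and on to those of CA1, and the pyramidal layers can be told from each other by their transcripts. The CA1 group holds Wfs1, which encodes wolframin, a membrane protein of the endoplasmic reticulum that is lost in Wolfram syndrome. It also holds Pantr1, a long noncoding RNA, Fibcd1, a transmembrane receptor for acetylated sugars, and Crym, a cytosolic thyroid hormone binding protein. In the CA3 group, Hs3st4 is a heparan sulfate 3-O-sulfotransferase, Chgb is the dense-core vesicle protein chromogranin B and Stmn2 is a tubulin-binding stathmin of growing neurites. Sh3gl2 encodes endophilin A1, which bends membrane in synaptic vesicle endocytosis, and Ccnd2 encodes cyclin D2, a partner of the G1 cyclin-dependent kinases.

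The genes lie on 7 chromosomes of GRCm38 in GENCODE vM21, with 2 pairs on the same chromosome that are not neighbors: Fibcd1 and Chgb on chromosome 2, and Crym and Hs3st4 on chromosome 7. Wfs1 spans chr5:36966104-36989205 on the minus strand and Crym chr7:120186380-120202111 on the minus strand. Pantr1, annotated as a lincRNA with 12 transcripts, spans chr1:42590782-42694842 on the minus strand and starts 925 bases from the POU factor gene Pou3f3, at chr1:42695768-42703176. Fibcd1 lies at chr2:31813290-31846005 on the minus strand and Chgb at chr2:132781278-132795079 on the plus strand. The longest loci are Sh3gl2, chr4:85205126-85639195, and Hs3st4, chr7:123982869-124398989, both on the plus strand. Stmn2 lies at chr3:8509360-8561606 on the plus strand and Ccnd2 at chr6:127125162-127152193 on the minus strand. Antisense genes overlap exons of Hs3st4 (Gm27040) and Ccnd2 (Gm43126 and 9330179D12Rik), and whether the counting used strand is not given in the sources used here, so counts of these members are uncertain to that extent.

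RefSeq promoter sequences of GRCm38.p6, running from 250 bases before the start to 50 after it, were matched for 5 of the 9 genes. They are shown for a pair from each group because the members' levels across the brain are compared with each other below. Capitals mark the E-box CANNTG and the cAMP response element half-site CGTCA, each searched on both strands, including where the half-sites make up the full palindrome TGACGTCA.
Chgb, chr2:132781392-132781691, plus strand: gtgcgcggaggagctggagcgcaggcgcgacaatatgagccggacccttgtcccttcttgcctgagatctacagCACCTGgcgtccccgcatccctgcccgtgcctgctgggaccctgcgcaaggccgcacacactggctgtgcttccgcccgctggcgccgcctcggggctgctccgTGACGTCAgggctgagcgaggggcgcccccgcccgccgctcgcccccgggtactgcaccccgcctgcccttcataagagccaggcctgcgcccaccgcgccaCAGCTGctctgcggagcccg
Sh3gl2, chr4:85205206-85205505, plus strand: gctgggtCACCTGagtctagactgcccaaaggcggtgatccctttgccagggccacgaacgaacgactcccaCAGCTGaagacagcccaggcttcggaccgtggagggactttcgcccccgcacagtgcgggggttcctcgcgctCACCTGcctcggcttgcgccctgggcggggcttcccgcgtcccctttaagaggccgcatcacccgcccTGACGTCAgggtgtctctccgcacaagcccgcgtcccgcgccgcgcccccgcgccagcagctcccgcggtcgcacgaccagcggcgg
Wfs1, chr5:36988933-36989232, minus strand: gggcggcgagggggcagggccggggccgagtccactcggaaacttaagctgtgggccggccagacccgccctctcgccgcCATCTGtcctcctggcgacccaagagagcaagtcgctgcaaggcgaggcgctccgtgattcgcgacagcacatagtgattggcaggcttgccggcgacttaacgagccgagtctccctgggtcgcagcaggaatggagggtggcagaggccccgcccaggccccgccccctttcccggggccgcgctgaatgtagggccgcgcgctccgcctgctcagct
Fibcd1, chr2:31845956-31846255, minus strand: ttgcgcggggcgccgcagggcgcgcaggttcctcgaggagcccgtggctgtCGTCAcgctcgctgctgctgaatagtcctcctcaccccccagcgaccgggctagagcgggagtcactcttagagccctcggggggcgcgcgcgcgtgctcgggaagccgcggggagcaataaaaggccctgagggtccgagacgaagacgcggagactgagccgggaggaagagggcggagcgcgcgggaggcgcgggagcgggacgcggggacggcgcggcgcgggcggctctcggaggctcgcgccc
The full palindrome was in the promoters of Chgb and Sh3gl2, in neither of the other promoters shown, not in that of Hs3st4, which held 0 E-boxes and 0 half-sites, and in 1.79% of the 32851 promoters of the table. The E-box was found 2 times in Chgb, 3 times in Sh3gl2, 1 time in Wfs1 and not at all in Fibcd1, against 72.3% of all promoters with at least 1. Fibcd1 held 1 half-site and 46 CpG dinucleotides, more CpGs than 98.4% of promoters, and Chgb, Sh3gl2 and Wfs1 held 31, 34 and 30. A match describes the letters and says nothing about binding.

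Trained 1 gave 7119995 UMIs over 2865 spots, trained 2 gave 10330015 over 3055, untrained 1 gave 3560294 over 2359 and untrained 2 gave 6581748 over 2661. Untrained 1 was the shallowest section, and the top of its cortex lay outside the capture area. The sections share 1330 spot barcodes, because every capture area carries the same barcode layout. Of 10940 spots, 3593 were led by 1 of 14 lists of region markers that contain none of the 9 genes, and 13 regions had at least 10 spots in every section. The summed markers were 3.52-fold to 129.6-fold higher inside their regions than outside, which the assignment by these markers fixes and which is no check of it. There were 151 CA1, 155 CA3 and 169 DG spots, and some spots led by hippocampal lists lay outside the hippocampus on the maps. The spots of CA1 and CA3 were most scattered in untrained 1, where the largest group of adjacent spots held 17.9% of CA1 and 36.8% of CA3 spots, against 37.8% to 67.5% and 53.3% to 69.2% in the other sections. DG was most scattered in trained 2, at 31.7% against 44.4% to 76.6%. The part of this scatter in the members' values was not tested. Levels are UMIs per 1000000 UMIs of the same region and section (CPM), a scale that does not account for transcript length, so each gene is compared only with itself across regions.

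Crym was the gene of the CA1 group with the clearest layer pattern: its CA1 level was above all 12 other regions in all sections. It was 327 CPM in trained 1, 332 in trained 2, 432 in untrained 1 and 363 in untrained 2 (364 ± 48.1, SD, n = 4). In CA3, next in order, it was 134, 199, 136 and 125 CPM, so the lowest CA1 section was above the highest CA3 section. The mean was 2.45-fold higher in CA1 than in CA3 and 4.36-fold higher than in DG. With scores smoothed over adjacent spots the log2 difference from CA3 went from 1.25 to 0.81, and in untrained 1 it was 0.039. Below CA3 came the striatum at 118 ± 21.0 CPM and layer 5 cortex at 92.3 ± 20.8, which overlapped, and the thalamus held 17.2 ± 10.8. Below CA1, Crym thus fell gradually with no clear second tier. CA3 and the striatum did not differ beyond their spread, and neither did the striatum and layer 5 cortex.

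Wfs1 marked CA1 within the hippocampus and also the striatum outside it. It was 314, 393, 268 and 281 CPM in CA1 of trained 1, trained 2, untrained 1 and untrained 2 (314 ± 56.1), 8.25-fold above CA3 and 5.11-fold above DG, with no overlap of sections. In CA3 the sections held 42.9, 33.2, 56.9 and 19.2 CPM, from 8, 8, 5 and 2 UMIs. The CA1 range stood above 11 of the 12 other regions. The exception was the striatum, at 205, 143, 269 and 235 CPM (213 ± 53.3), where 3 of 4 sections had more in CA1 and untrained 1 did not. Upper cortex (119.9 ± 60.9 CPM) and layer 6 cortex (112 ± 60.7) followed and did not differ beyond their spread, with untrained 1 highest in both, at 200.3 and 198 CPM.

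Fibcd1 was high in CA1 and in the medial habenula and low elsewhere. In CA1 it was 78.6, 86.8, 74.4 and 87.2 CPM (81.7 ± 6.29), the smallest spread relative to its mean of any member in its layer, although from only 12, 17, 5 and 18 UMIs. The medial habenula, a cholinergic nucleus beside the third ventricle, held 74.8, 115, 108 and 52.9 CPM (87.7 ± 29.0), from 8, 7, 2 and 3 UMIs. CA1 and the medial habenula could not be ordered, since 2 of 4 sections were higher in each. Every other region was lower in all sections than CA1, from 18.7 ± 16.1 CPM in DG down to the thalamus at 1.67 ± 2.18. No UMI of Fibcd1 was counted in the choroid plexus of any section, which allows up to 33.0, 64.7, 131 and 33.6 CPM at 3 counts, in the order of sections above. Intervals and limits of this kind cover counting error only.

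Pantr1 had its highest mean in CA1 but was also the most widespread and most variable of the CA1 group. Its CA1 level was 334 CPM in trained 1, 587 in trained 2, 193 in untrained 1 and 291 in untrained 2 (351 ± 168). The mean was 3.94-fold above CA3, and each section had more in CA1 than in the striatum, by 1.14 ± 0.14 on the log2 scale of CPM plus 10. The meninges came next at 183 ± 49.2 CPM, from 2 to 13 UMIs a section. Then followed DG at 165 ± 142, upper cortex at 159 ± 45.7 and striatum at 149 ± 57.0. None of these regions differed from each other beyond the spread. The CA1 range stood above only 6 of the 12 other regions. In untrained 1 the meninges, at 207 CPM from 2 UMIs, were above CA1. In DG the sections held 112, 375, 65.0 and 108 CPM, so that trained 2 stood apart from the other sections. In the same DG spots of trained 2 the 10 astrocyte markers summed to 4586 CPM, against 2406 to 2679.6 in the other sections, 9 of the 10 with a higher mean in trained and none at 0. The 8 microglia markers were at 687 CPM there against 251 to 406, and the 5 blood markers at 875 against 309 to 519. The 9 DG markers were lower in these spots, at 1068 CPM against 1397 to 1564. The part of these lists in the Pantr1 value was not tested.

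**Figure D1:**
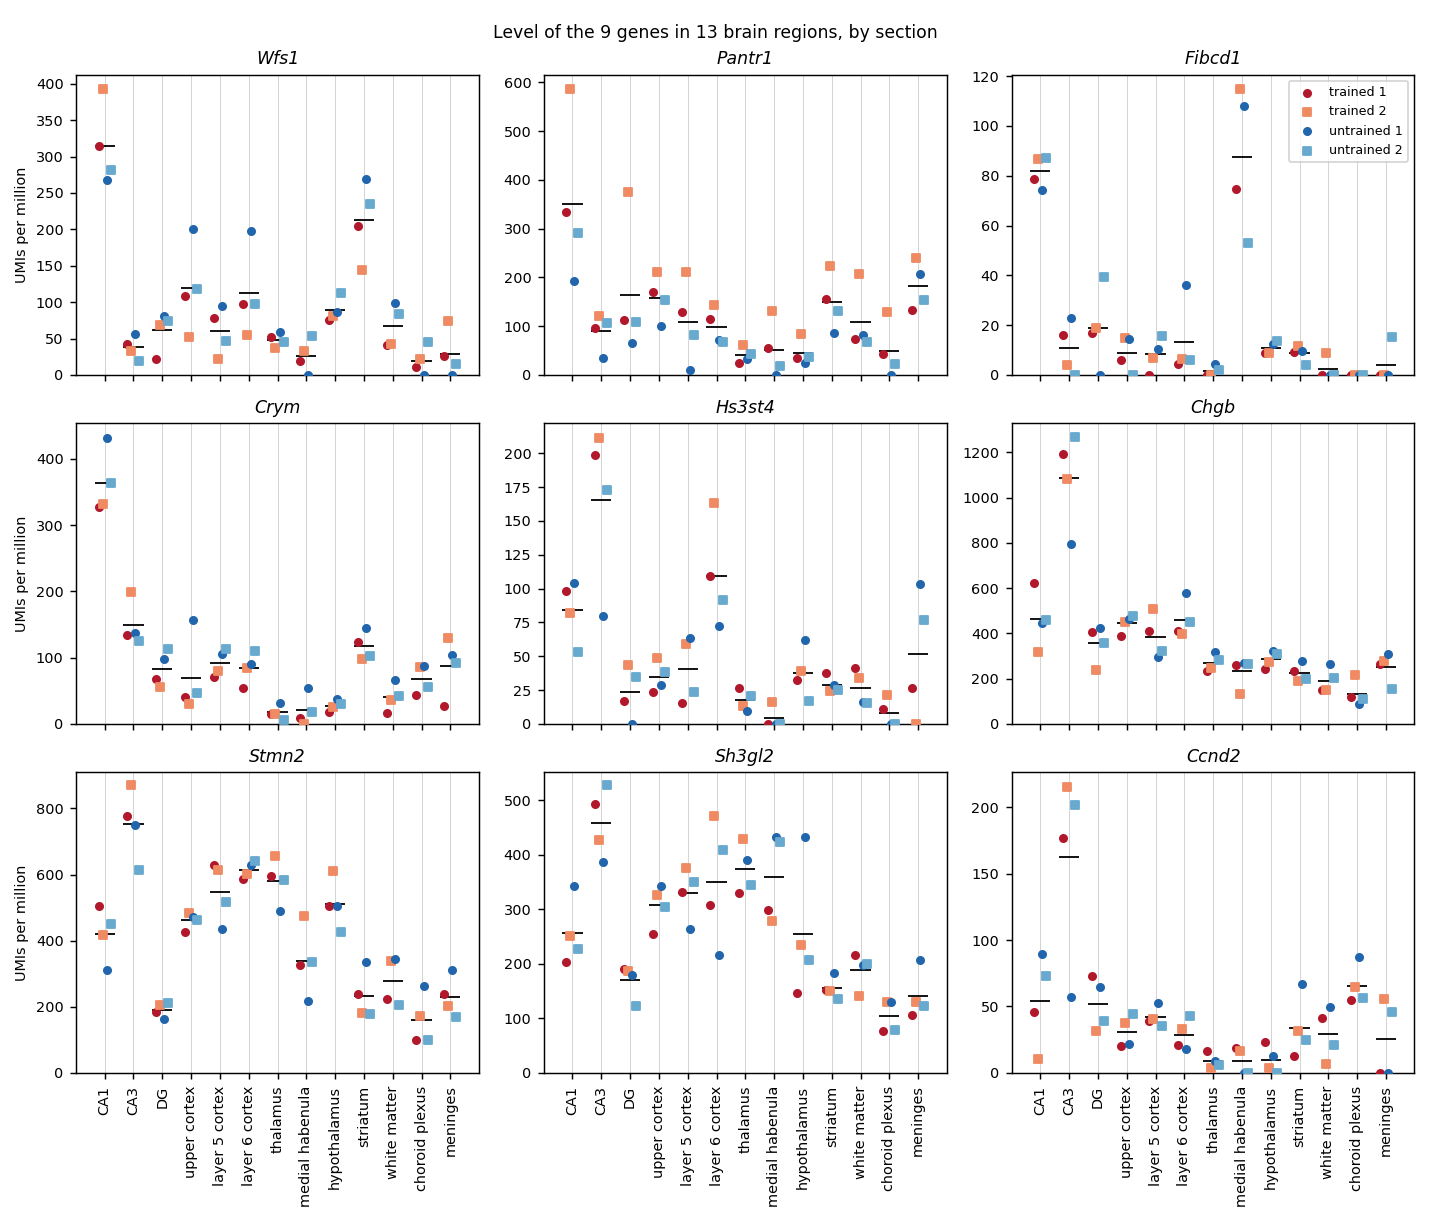
Level of each of the 9 genes (vertical axis, CPM, from 0, with its own scale per gene) in 13 brain regions (horizontal axis); points are the 4 sections and black lines their means. Crym in CA1 and Chgb in CA3 stand clear of every other region, Fibcd1 has 2 high regions, and Stmn2 and Sh3gl2 have a graded pattern.

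Chgb was the gene of the CA3 group whose highest level was clear of the rest. It was 1192, 1082, 796 and 1268 CPM in CA3 of trained 1, trained 2, untrained 1 and untrained 2 (1084 ± 207), above all 12 other regions in all sections. The mean was 2.35-fold above CA1 and 3.04-fold above DG. Layer 6 cortex (459 ± 81.7 CPM), CA1 (461 ± 125) and upper cortex (445 ± 39.4) followed and could not be ordered, and the choroid plexus was lowest at 134 ± 56.3. Chgb was thus found in every neuronal region measured, with the striatum lowest at 224 ± 40.9 CPM, and its CA3 level stood above that shared level.

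Hs3st4 and Ccnd2 were low genes with a CA3 peak that was missing or reduced in untrained 1, the shallowest section and the one with the most scattered CA3 spots. Hs3st4 was 199, 211, 79.6 and 173 CPM in CA3 (166 ± 59.5) and 6.98-fold higher there than in DG. Layer 6 cortex was next at 109 ± 39.3 CPM, lower than CA3 within every section by 0.53 ± 0.35 on the log2 scale, yet with overlapping ranges. At a stricter region score threshold of 0.6 this difference was 1.52, and 0.82 without untrained 1, whose layer 6 cortex then held 10 spots and 0 UMIs of Hs3st4. CA1 held 84.3 ± 22.8 CPM, and in untrained 1 it was above CA3, at 104 against 79.6 CPM from 7 UMIs each. Hs3st4 therefore had a second site in the deep cortex, while layer 5 cortex was at 40.4 ± 24.4 CPM and upper cortex at 34.8 ± 11.2.

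Ccnd2 was 177, 216 and 202 CPM in CA3 of trained 1, trained 2 and untrained 2 but 56.9 in untrained 1, from 33, 52, 21 and 5 UMIs. In untrained 1 CA1, at 89.3 CPM from 6 UMIs, was above CA3. So were the choroid plexus at 87.2 CPM, the striatum at 67.3 and DG at 65.0 in that section. Over the 4 sections the CA3 mean was 163 ± 72.4 CPM and exceeded CA1 by 2.99-fold, and CA3 stood above CA1 in 3 of 4 sections. The choroid plexus, the secretory lining of the ventricles, was at 65.7 ± 15.0 CPM, from 5, 3, 2 and 5 UMIs, CA1 at 54.5 ± 34.5 and DG at 52.0 ± 19.9. These did not differ beyond their spread.

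Stmn2 and Sh3gl2 were found in every region measured, with CA3 at the top of a gradual order. Stmn2 was 778, 870.5, 751 and 615 CPM in CA3 (754 ± 106), followed by layer 6 cortex (614 ± 25.1), thalamus (581 ± 68.0) and layer 5 cortex (548 ± 90.5), none clear of the next. CA3 was above layer 6 cortex by 0.28 on the log2 scale, by 1.11 at a region score threshold of 0.6, and by 0.43 at that threshold without untrained 1, whose layer 6 cortex then held 1 UMI of Stmn2. Its contrast inside the hippocampus came from the DG, at 184, 206, 162 and 212 CPM, 3.94-fold below CA3 and the lowest of the neuronal regions. Sh3gl2 was 494, 427, 387 and 528 CPM in CA3 (459 ± 64.0), against 374 ± 45.3 in thalamus and 358 ± 80.6 in medial habenula. CA3 exceeded the thalamus in 2 of 4 sections, so those regions could not be ordered for Sh3gl2. Its level in DG, 169.7 ± 31.5 CPM, was 2.704-fold below CA3. In the striatum both genes were low for a neuronal region, at 233 ± 74.5 CPM for Stmn2 and 155 ± 19.7 for Sh3gl2. White matter held 278 ± 73.9 CPM of Stmn2 and 188 ± 32.2 of Sh3gl2. These means were above those of the striatum and DG, with overlapping ranges, so the neuronal regions did not all lie above it.

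The share of each gene's UMIs found in its own layer shows how far these genes were from being confined to it. CA1 spots held 1.89% to 3.14% of all UMIs of a section, but 7.84% to 12.6% of those of Crym, 4% to 10.4% of those of Wfs1 and 9.43% to 23.4% of those of Fibcd1. For Pantr1 the share in CA1 was 4.66% to 9.97%. CA3 spots held 1.58% to 2.62% of all UMIs, 5.06% to 8.42% of those of Chgb and 4% to 19.8% of those of Ccnd2. The shares were lowest for Stmn2, 2.18% to 4.22%, and Sh3gl2, 3.09% to 5.01%. For all 9 genes most UMIs thus lay outside the layer that the gene leads, in part in spots that no marker list led.

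**Figure D2:**
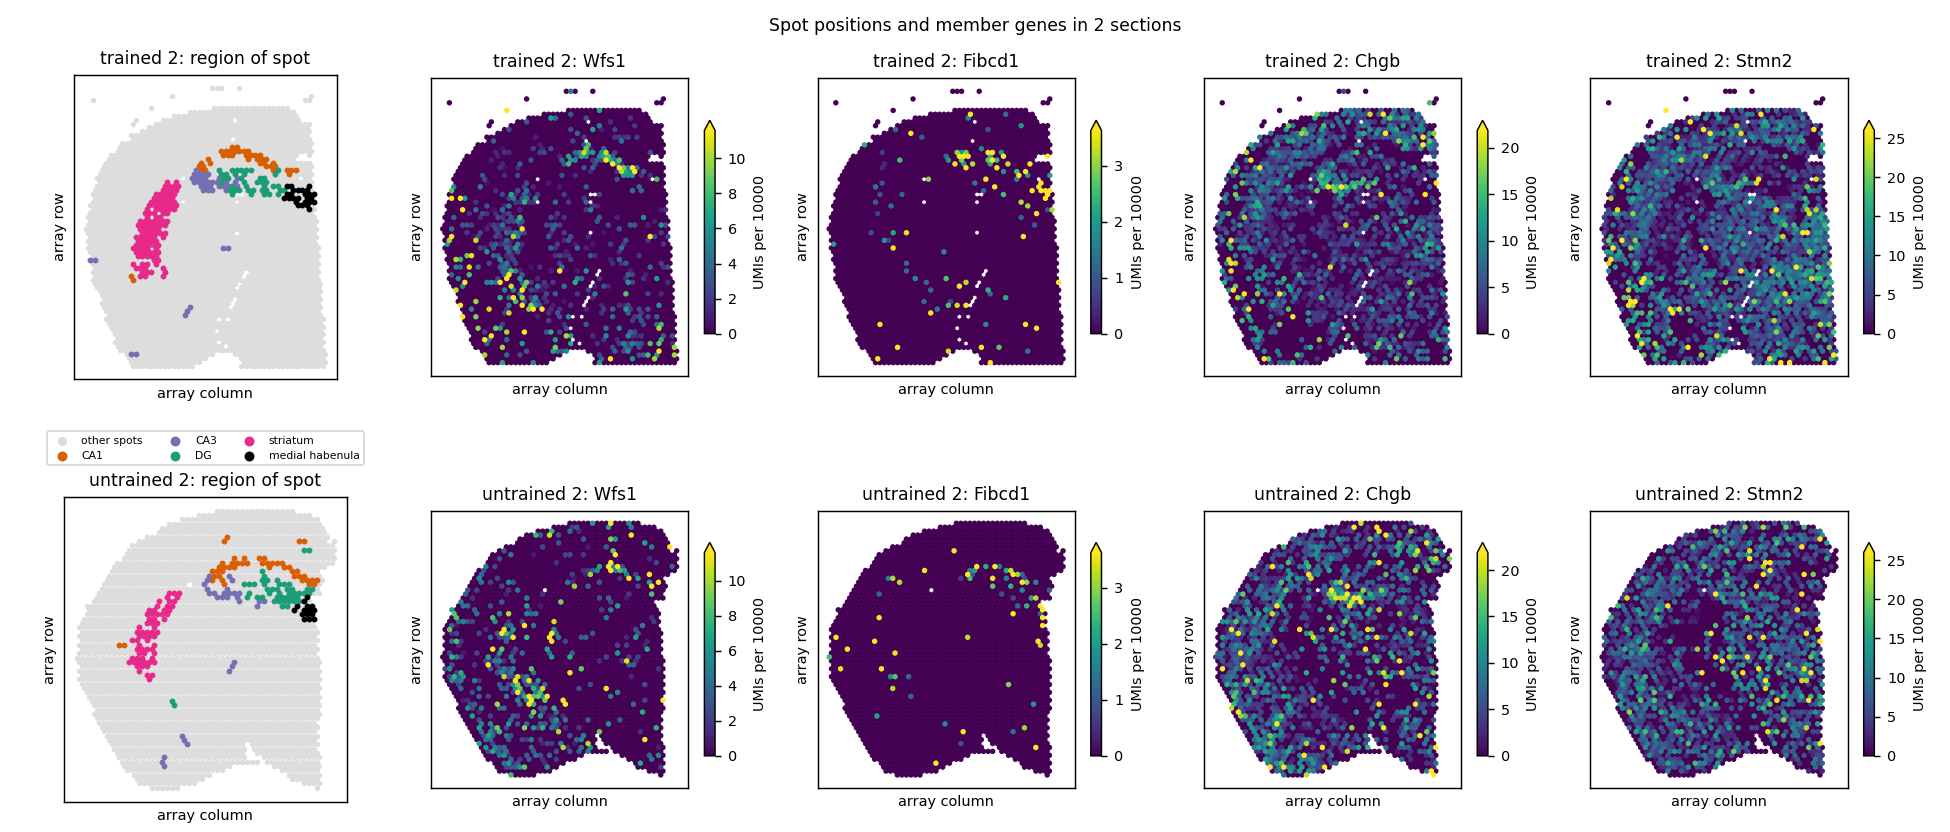
Spots of trained 2 and untrained 2 on the capture array (horizontal axis, array column; vertical axis, array row), colored at left by 5 of the 13 regions and in the other panels by UMIs per 10000 of Wfs1, Fibcd1, Chgb and Stmn2, with the color scale topped at the 99th percentile of the spots of both sections. Wfs1 lies on the CA1 arc and in patches of the striatum, and Fibcd1 on the CA1 arc and the medial habenula. Chgb lies on CA3 over a level shared with cortex, and Stmn2 across cortex and thalamus. Stmn2 in white matter was 337 CPM in trained 2 and 204 in untrained 2, against 180 and 177 in the striatum.

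The mean levels fell off over the first 2 steps from the layers. Spots led by no list were grouped by their number of array steps from the nearest CA1 or CA3 spot. Wfs1 fell from 314 CPM in CA1 to 135 ± 6.59 at 1 step and 80.8 ± 21.9 at 2 steps. Fibcd1 fell less over the first step, from 81.7 to 72.2 ± 17.1 CPM, and then to 36.7 ± 20.0 at 2 steps and 8.33 ± 10.3 at 3. The adjacent spots held as much Fibcd1 as CA1 itself in trained 1 and trained 2 (85.0 and 87.6 CPM) and less in untrained 1 and untrained 2 (64.0 and 52.1 CPM). Crym fell from 364 CPM to 207 ± 70.4 and 123 ± 29.4, and Pantr1 from 351 to 252 ± 121 and 193 ± 134.

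Around CA3, Chgb fell from 1084 CPM to 524 ± 55.9 at 1 step and 338 ± 124 at 2 steps, where it met the level of the surrounding tissue (342 ± 87.3 at 3 steps). Hs3st4 went from 166 to 96.5 ± 28.0 and 50.5 ± 20.2 CPM, and Ccnd2 from 163 to 77.3 ± 11.9 and 26.7 ± 18.0. In untrained 1, however, these genes rose over the first step, Hs3st4 from 79.6 to 119.8 CPM and Ccnd2 from 56.9 to 82.4. Stmn2 went only from 754 to 569 ± 60.4 and 499 ± 83.8 CPM, and Sh3gl2 from 459 to 321 ± 18.9 and 282 ± 54.4. In proportion to their CA3 levels, the mean of Stmn2 thus fell least over the first step and those of Chgb and Ccnd2 fell most.

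**Figure D3:**
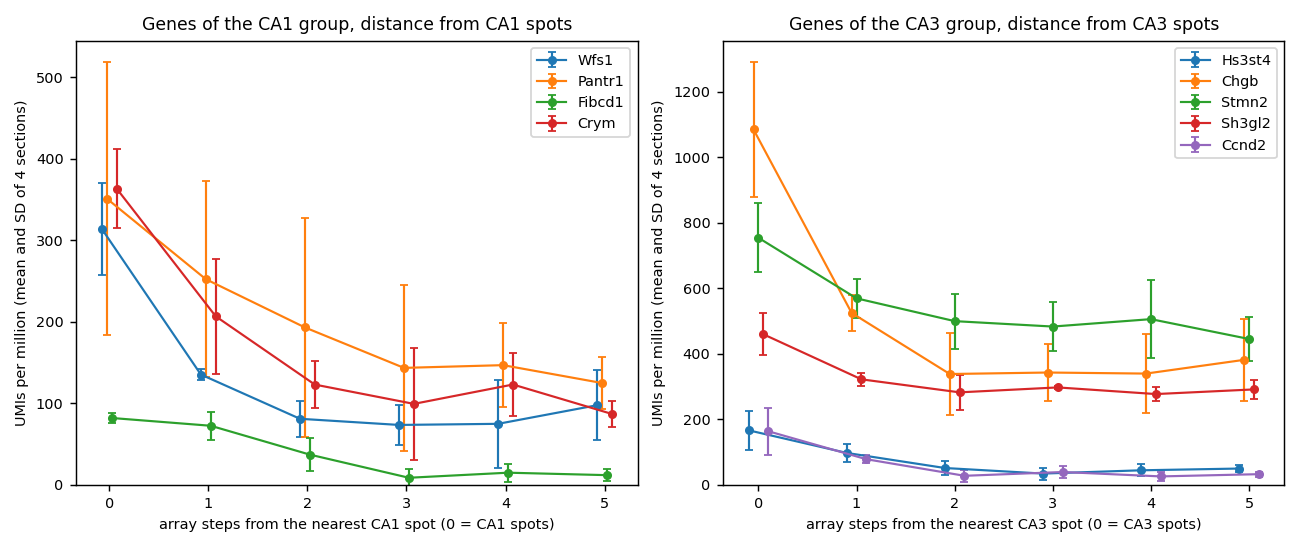
Level of the CA1 group by array steps from CA1 spots (left) and of the CA3 group by steps from CA3 spots (right); the vertical axis is CPM from 0, points are means and bars SDs of 4 sections, and 0 steps is the layer itself. Chgb reaches the level of the surrounding tissue by 2 steps, and Stmn2 and Sh3gl2 go from 754 to 499 CPM and from 459 to 282 CPM over the same distance.

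Across the 13 regions some members had like patterns and others did not. The likeness was taken as Pearson's r of the mean log2 level over the 13 regions, points that share 4 libraries, and it is given as a description. The closest pair was Stmn2 and Sh3gl2 (r = 0.91), followed by Hs3st4 and Chgb (0.82), and Pantr1 and Crym (0.75). Ccnd2, listed with CA3, was more like Crym (0.71) than like Chgb (0.49), and its r with Stmn2 was 0.0035. Wfs1 and Crym, both highest in CA1, had an r of only 0.51, and the lowest r of all pairs was -0.13, between Pantr1 and Sh3gl2. Within the CA3 group Chgb was also like Stmn2 (0.74) and Sh3gl2 (0.71), and Hs3st4 like Stmn2 (0.63). These values include the hippocampal layers themselves.

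For each member, the 3 genes with the most similar regional pattern were named among genes of at least 50 CPM in some region that were neither members nor region markers. Crym and Pantr1 shared 2 of them, Rgs14, a regulator of G protein signaling, and Rin1, a Ras and Rab5 effector, at r = 0.88 and 0.89 with Crym and 0.84 and 0.82 with Pantr1. The closest gene to Crym was Rprml (0.90, highest in CA1 at 352 CPM). Fibcd1 was most like the tetraspanin Tspan13 (0.91), which also had the medial habenula (719 CPM) and CA1 (396 CPM) at its top. Wfs1 was most like Sez6 (0.85), with 328 CPM in striatum and 316 in CA1, and its list also held the immediate early gene Egr1 (0.81). Among the CA3 group, Chgb was most like Dnm1 (0.93), the neuronal dynamin, and Hs3st4 like Dkk3 (0.91), a secreted Dickkopf family protein that was itself as high in CA1 (286 CPM) as in CA3 (266 CPM). Stmn2 was most like Dnajc6 (0.94), the clathrin-uncoating auxilin, Sh3gl2 like Atp6v0c (0.93), a proton pump subunit, and Ccnd2 like the semaphorin Sema5b, at a lower r of 0.78.

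The nearest relatives of the members had their highest means in various regions, and in only 3 of 20 was that region clear of all others. Among the stathmins, Stmn1 was highest in layer 6 cortex (1626 ± 255 CPM), Stmn3 in the medial habenula (1209 ± 157, against 1133 ± 58.1 in CA3) and Stmn4 in white matter (896 ± 158), each overlapping with another region, while Stmn2 had its highest mean in CA3. Of the other endophilins, Sh3gl3 (76.8 ± 23.1) and Sh3glb1 (128 ± 17.7) had their highest means in white matter and Sh3gl1 (64.1 ± 33.7) and Sh3glb2 (239.7 ± 59.6) in DG, none clear of all others. Chga, Scg2, Scg5 and Vgf, granins and related vesicle proteins, had their highest means in the hypothalamus, at 296 ± 70.7, 798 ± 191, 593 ± 57.0 and 293 ± 97.1 CPM, and for Scg2 this was clear of every other region. Scg3 had its highest mean in upper cortex, at 191 ± 28.3 CPM, and 181 ± 39.6 in the hypothalamus, which overlapped. Chgb in the hypothalamus was 287 ± 35.6 CPM.

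Some relatives differed from the members between CA1 and CA3. Ccnd1 was at 55.0 ± 20.5 CPM in CA1 and 13.5 in CA3, higher in CA1 in 4 of 4 sections, and Ccnd3 was highest in the choroid plexus (137 ± 25.1), clear of every other region. Hs3st1 was at 49.4 ± 25.9 in CA1 and 48.5 ± 10.9 in white matter, which could not be ordered, and at 15.2 in CA3. Hs3st2 had its highest mean in layer 6 cortex (91.5 ± 17.5) and was 17.0 in CA3. Pou3f3, the neighbor of Pantr1, was at 99.7 ± 48.0 CPM in the medial habenula, 87.3 in CA1 and 86.1 in DG, which could not be ordered. Pou3f1 was at 184 ± 51.7 in CA1, clear of every other region, against 17.9 in CA3.

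Trained and untrained sections were compared on summed UMIs with edgeR (quasi-likelihood F-tests, p-values adjusted over all genes tested). None of the 9 members passed the threshold of 0.05 over whole sections, where 2 of 13810 genes were called (0.0145%). In CA1 (9 members tested), CA3 (7), DG (7) and cortex (8) none passed either, against 0.0496% of genes in CA1 and 0% in CA3, DG and cortex. At an unadjusted p under 0.05, 4 members passed over whole sections (7.96% of all genes), 2 in CA1 (4.73%), 0 in CA3 (5.55%), 1 in DG (4.32%) and 3 in cortex (5.98%). Wfs1 and Fibcd1 in CA3, Fibcd1 and Hs3st4 in DG and Fibcd1 in cortex had too few UMIs to be tested.

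Crym came closest. Over whole sections it was 57.4 and 61.0 CPM in trained 1 and trained 2 and 104 and 90.4 in untrained 1 and untrained 2, so both trained sections were below both untrained ones. The log2 difference of trained minus untrained was -0.79 with a standard error of 0.12 (edgeR quasi-likelihood test, adjusted p = 0.162). With DESeq2 on the same sums the adjusted p was 0.00358 and the difference -0.80, with the replicate number as a block the edgeR adjusted p was 0.00752, and with no filter on low counts it was 7.72e-06, the lowest of all settings. The highest was 0.764, without untrained 1, and 5 of 11 settings called Crym, so the call rests on the model, the filter and the sections. Without trained 1 the edgeR adjusted p was 9.66e-06 and without trained 2 it was 0.000455. In such fits the trained group is 1 section and the spread comes from the 2 untrained sections alone, so these 2 p-values do not show that the difference is stable. In CA1, where Crym is highest, the difference was -0.24 with a standard error of 0.26 (edgeR adjusted p = 0.999), and in cortex -0.76 with 0.25 (edgeR adjusted p = 0.779), or -0.51 without untrained 1.

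Crym was lower in both trained sections in 8 of the 13 regions and higher in none. Of the 6550 genes at 10 CPM or more in all 13 regions, 29 (0.443%) were lower in 8 or more regions. The regions come from the same 4 sections and are not independent. Members were also counted by region, with the trained sections both above or both below the untrained ones. Over whole sections 2 of 9 were above (29.8% of genes at 10 CPM or more) and 4 below (12.5%). In CA1 2 were above (18.7%) and 2 below (14.2%), in CA3 2 above (18.4%) and 0 below (15.9%), and in DG 2 above (15.1%) and 2 below (18.2%). Upper cortex had 1 above (20.3%) and 3 below (14.1%), layer 6 cortex 2 above (19.9%) and 4 below (15.7%), the medial habenula 1 above (19.6%) and 3 below (13.1%), and the hypothalamus 0 above (21.9%) and 4 below (14.3%). Layer 5 cortex had 3 above (21.5%) and 1 below (13.6%), white matter 1 above (20.6%) and 3 below (13.8%), the choroid plexus 2 above (15.7%) and 0 below (14.1%), and the meninges 1 above (25.2%) and 1 below (8.94%). The striatum had 1 above (20.7%) and 1 below (15.4%), and the thalamus 1 above (21.2%) and 1 below (13.3%).

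Pantr1 had the opposite order to Crym, and Wfs1 had the order of Crym over whole sections but not in CA1. Pantr1 over whole sections was 100.4 and 161 CPM in trained and 78.4 and 91.5 in untrained (log2 difference 0.53, standard error 0.18, edgeR adjusted p = 0.582, and 3.38e-06 without trained 1). Without trained 2 the difference was 0.21 (edgeR adjusted p = 0.999). It was higher in both trained sections in 8 of 13 regions and lower in none, and 68 of the 6550 genes did so (1.04%). Trained 2 was the highest section in all 13 regions, and the DG difference of 1.43 (standard error 0.48, edgeR adjusted p = 0.961) was 0.19 without trained 2, whose DG value is named above, and 2.13 without trained 1. Wfs1 over whole sections was 90.03 and 71.5 CPM in trained and 126 and 111 in untrained (log2 difference -0.63, standard error 0.15, edgeR adjusted p = 0.476, and 1.13e-06 without trained 1), and without trained 2 it was -0.42. In CA1 the order was the other way, with trained 1 and trained 2 at 314 and 393 CPM above untrained 1 and untrained 2 at 268 and 281 (log2 difference 0.35, standard error 0.27, edgeR adjusted p = 0.999, and 0.16 without trained 2).

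In the CA3 group the training differences were small where the genes are abundant. Over whole sections Chgb differed by -0.22, Stmn2 by 0.06 and Sh3gl2 by -0.05 on the log2 scale, with standard errors of 0.13, 0.12 and 0.12. Ccnd2 was at 32.3 and 25.5 CPM in trained and 35.1 and 37.8 in untrained, so both trained sections were below both untrained ones. Its log2 difference was -0.43 with a standard error of 0.17 (edgeR adjusted p = 0.594), -0.66 without trained 1 and -0.21 without trained 2, and it is 1 of the 4 members with an unadjusted p under 0.05 over whole sections. In CA3 itself Chgb, Stmn2 and Sh3gl2 differed by 0.12, 0.27 and -0.02, with standard errors of 0.21, 0.21 and 0.22. Stmn2 and Hs3st4 were higher in both trained sections there; 18.4% of genes at 10 CPM or more in CA3 were. Hs3st4 differed by 0.66 with a standard error of 0.35 in CA3 (edgeR adjusted p = 0.910), and by 0.27 without untrained 1 and 1.35 without untrained 2. Ccnd2 was lower in both trained sections in CA1, at 45.8 and 10.2 CPM against 89.3 and 72.7, from 7, 2, 6 and 15 UMIs (log2 difference -1.55, standard error 0.68, edgeR adjusted p = 0.962), as were 14.2% of genes there. This difference was -2.85 without trained 1 and -0.76 without trained 2. In CA3 the difference for Ccnd2 was 0.55 with a standard error of 0.37, and -0.0033 without untrained 1.

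Whether training effects differed between layers was tested with the section as a block. No member was called in CA1, CA3 or DG against the other layers, and over all 5200 genes 0, 0 and 1 were called, the last being 0.0192%. At an unadjusted p under 0.05 there were 1, 2 and 0 members, against 4.21%, 4.4% and 5.31% of all genes. The largest contrast among members was that of Ccnd2 in CA1, -1.93 on the log2 scale with a standard error of 0.66 (edgeR adjusted p = 0.997). Across the gene lists fixed for the roles of the members (dense-core vesicles, stathmins and tubulin, endophilins and endocytosis, D cyclins, heparan sulfate enzymes, thyroid hormone handling and endoplasmic reticulum stress), no gene was called in any comparison. Over whole sections 15 of 15 vesicle genes were tested, with a median log2 difference of -0.0029 and 7 above 0, against a median of 0.0087 over all genes tested. The 13 tested of 14 other CA1 pyramidal genes had a median of -0.17 with 3 above 0, and the 16 other CA3 pyramidal genes -0.12 with 5 above 0. Within the CA1 layer the 11 tested CA1 genes had a median of 0.21 with 8 above 0, and within the CA3 layer the 10 tested CA3 genes had -0.071 with 4 above 0.

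The sections also differed in what they contained. The 10 choroid plexus markers summed to 6032, 806, 2754 and 5759 CPM of whole sections in trained 1, trained 2, untrained 1 and untrained 2, with no marker at 0. The 8 white matter markers summed to 4173, 7006, 4645 and 4679.8 CPM, also with none at 0. Of these markers 2 of 10 and 8 of 8 had a higher mean in trained, but neither sum separated the trained from the untrained sections. Other lists did: the 11 striatum markers summed to 827 and 931 CPM in trained and 646 and 622 in untrained, with 11 of 11 higher on average in trained. Wfs1 and Crym were also present in the striatum (213 and 118 CPM), so this list ran opposite to their lower whole-section values. The 9 interneuron markers summed to 1813 and 1751 against 1644 and 1639.7 CPM, with 5 of 9 higher in trained. The 7 CA1 markers summed to 699 and 752 against 758 and 767 CPM, with 1 of 7 higher in trained, in the direction of the lower whole-section values of Crym and Wfs1. No marker of these lists was at 0, and their part in the whole-section values of the members was not tested.

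**Figure D4:**
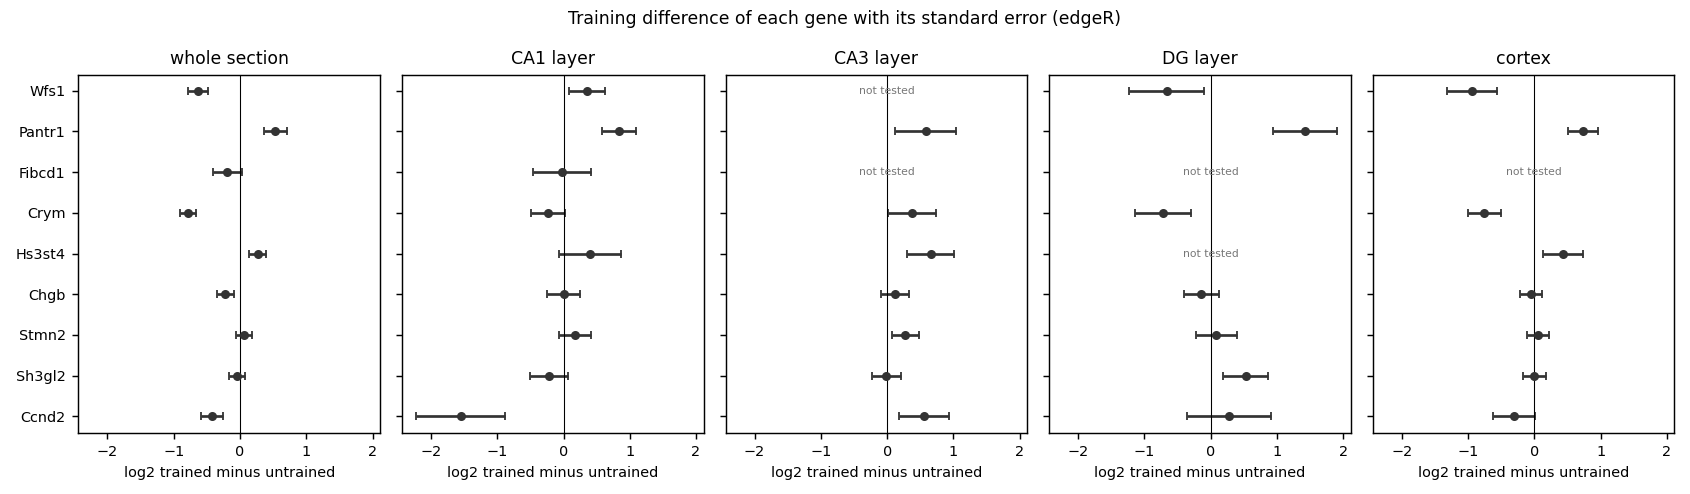
Difference of trained minus untrained on the log2 scale (horizontal axis) for each gene (vertical axis) over whole sections, 3 hippocampal layers and cortex; points are edgeR estimates and bars 1 standard error, and genes with too few UMIs are marked as not tested. Crym, Wfs1 and Ccnd2 lie below 0 and Pantr1 above it over whole sections, and no point passed the adjusted threshold.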

How the data were processed

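UMI counts per gene and spot, as the authors deposited them, were used for 4 Visium sections, with 1 section per mouse as the replicate. The deposited count files name Space Ranger 1.2.2 in their headers. The methods name mm10, whereas the submitters' processing notes list other builds too, so that coordinates are those of GENCODE vM21 and RefSeq for GRCm38 and not of the counts. Sections held 3560294 to 10330015 UMIs.

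The 9 members, the marker lists and the gene lists were chosen with earlier results of these data known. Spots over tissue were assigned to 1 of 14 regions where the mean z-score of its markers (log-scaled UMIs per 10000), set to 0 at the median and to 1 at the top 0.5% of spots, led all others and reached 0.5, and where at least 1 adjacent spot had the same region. A region value needed 10 spots and was its summed UMIs per 1000000 (CPM). Log2 levels were taken of CPM plus 10. Genes were named by rule: the 9 members, their family members at 10 CPM or more, and the 3 genes with the most similar pattern over 13 regions, among genes of 50 CPM or more in some region and, except for Stmn2 and Sh3gl2, of at least 5-fold range.

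Summed UMIs of trained and untrained sections were compared with edgeR 4.0.16 in R 4.3.3 (filterByExpr, TMM, quasi-likelihood F-test, Benjamini-Hochberg adjustment over all genes tested, threshold 0.05). Differences of the training effect between layers were fitted with the section as a block. The scripts were tested on simulated data. With 2 sections a group the residual degrees of freedom were 2. The prior degrees of freedom, from all genes, were 8.15 over whole sections, 36.0 in CA3, 19.6 in DG and 13.8 in cortex. In CA1 they were infinite, so p-values and standard errors there use the trend over genes and not each gene's own spread. Alternatives were DESeq2 1.42.0, no filter on low counts, thinned sums, abundant transcripts left out, other size factors, the replicate number as a block, no section block, other region rules and leaving out each section. Same-numbered sections did not deviate together (r = 0.019 over 13810 genes).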

Additional observations from a re-analysis of the deposited data

Results flagged for a closer look

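In 5 of 9 members both trained sections were above both untrained sections in 1 region and below both in another, and 60.2% of genes at 10 CPM or more in at least 2 regions did so, so the count is no result about the members. Sizes are trained minus untrained on the log2 scale of CPM plus 10. Each pair was the most different among such regions, all from the same sections, and the difference between the regions was not tested.

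Wfs1 was 1.80 higher in the meninges, from 1, 4, 0 and 1 UMIs, and 0.95 lower in white matter (log2 -0.95), a difference of 2.75. Hs3st4 was 0.86 higher in white matter and lower in the meninges (log2 -2.38), from 1, 0, 1 and 5 UMIs there, a difference of 3.24. Chgb was 0.66 higher in the choroid plexus and lower in white matter (log2 -0.60), a difference of 1.26. Stmn2 was 0.38 higher in layer 5 cortex and slightly lower in layer 6 cortex (log2 -0.096), a difference of 0.48. Sh3gl2 was 0.33 higher in DG and lower in the medial habenula (log2 -0.55), a difference of 0.88.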

How the results depend on the processing

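The number of genes called over whole sections was 2, and it was 20 with DESeq2, 211 with no filter on low counts, 7 with thinned sums and 2 to 848 when 1 section was left out. In CA1 it was 2, then 0 with DESeq2, with thinned sums, with abundant transcripts left out, at a score threshold of 0.4 and with isolated spots kept, 1 with no filter, at a threshold of 0.6 and with smoothed scores, and 0 to 6 without 1 section. In CA3 it was 0, then 2 with no filter, 1 at a threshold of 0.4, 9 with isolated spots kept, 7 with smoothed scores and 1 to 2 without 1 section. In DG it was 0, then 3 with no filter and 0 to 79 without 1 section. In cortex it was 0, then 25 with no filter, 1 at a threshold of 0.4, 7 at 0.6, 4 with isolated spots kept, 1 with smoothed scores and 1 to 126 without 1 section. Genes whose training effect differed between layers numbered 0 for CA1 and CA3 and 1 with smoothed scores, and 0 to 1 without 1 section. For DG there was 1, then 0 with DESeq2, with abundant transcripts left out and with no section block, 2 with isolated spots kept and 0 to 11 without 1 section. The number of unadjusted p under 0.05 in the edgeR fits was 177 in CA3, 172 in DG and 563 in cortex.

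Deviations of same-numbered sections did not go together, and whether such sections shared a batch was not tested. Under the replicate block the counts were 47 over whole sections, 1 in CA1, 2 in CA3, 6 in DG and 73 in cortex. With the block the edgeR adjusted p of Wfs1 was 0.0281 over whole sections and 0.00130 in cortex, and that of Pantr1 was 0.00707 in DG and 0.0382 in cortex. Without trained 1 the edgeR adjusted p was 1.13e-06 for Wfs1, 3.38e-06 for Pantr1 and 0.00896 for Ccnd2 over whole sections, 2.26e-06 for Wfs1 in cortex, and 0.0381, 3.83e-06 and 0.0422 for Pantr1 in CA1, DG and cortex. These fits hold 1 trained section, assumed to vary like the 2 untrained ones, which alone give the spread. With no filter it was 0.00154 for Wfs1 and 0.0111 for Pantr1 over whole sections.

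Of the members' log2 training effects under the alternatives, 449 kept direction and side of the threshold, 18 passed it and 47 reversed. Leaving out 1 section gave, over whole sections, -0.012 to 0.13 for Stmn2 and -0.13 to 0.025 for Sh3gl2. In CA1 it gave -0.12 to 0.14 for Fibcd1, -0.24 to 0.71 for Hs3st4 and -0.54 to 0.42 for Chgb. In CA3 it gave -0.14 to 0.50 for Chgb, -0.18 to 0.24 for Sh3gl2 and -0.0033 to 1.78 for Ccnd2. In DG it gave -1.72 to 0.053 for Wfs1, -0.47 to 0.12 for Chgb, -0.10 to 0.38 for Stmn2 and -0.39 to 0.66 for Ccnd2, and in cortex -0.016 to 0.72 for Hs3st4 and -0.13 to 0.14 for Sh3gl2. With no filter Fibcd1 in CA1 was 0.017 and Sh3gl2 in CA3 0.051. With the replicate block Fibcd1 in CA1 was 0.011 and Chgb in CA1 -0.11. Chgb in CA1 was -0.37 with thinned sums, -0.0045 with abundant transcripts left out and -0.0025 with other size factors, which gave -0.00080 for Sh3gl2 in cortex. At a threshold of 0.4 Fibcd1 in CA1 was 0.068, Sh3gl2 in CA3 0.12 and Sh3gl2 in cortex -0.019. At 0.6 Fibcd1 in CA1 was 0.019, Crym in CA3 -0.046, Stmn2 in DG -0.15 and Chgb in cortex 0.0045. With isolated spots kept Fibcd1 in CA1 was 0.43, Chgb in CA1 -0.13, Sh3gl2 in CA1 0.0075, Crym in CA3 -0.16, Sh3gl2 in CA3 0.081 and Sh3gl2 in cortex -0.069. With smoothed scores Crym in CA1 was 0.00067, Chgb in CA1 -0.030, Crym in CA3 -0.58, Sh3gl2 in CA3 0.033, Stmn2 in DG -0.17 and Stmn2 in cortex -0.0089.

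Of the ratios between regions, 89 moved by less than the spread between sections. Crym in CA1 over CA3, 1.25 on the log2 scale, was 0.81 with smoothed scores. At a threshold of 0.6, CA3 over layer 6 cortex went from 0.53 to 1.52 for Hs3st4 and from 0.28 to 1.11 for Stmn2, and without untrained 1, an alternative chosen after seeing the data, to 0.82 and 0.43, since at that threshold its layer 6 cortex held 10 spots. The cause of the Crym shift was not tested. Depth limits Fibcd1, Ccnd2 and Hs3st4 most, each at under 10 UMIs in every hippocampal layer of untrained 1.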
